A study of Arabidopsis thaliana with 6 samples.

Results

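The cold genes described here are 10 Arabidopsis thaliana genes chosen by name: the transcription factor genes CBF1, CBF2 and CBF3, and the COR, KIN, ERD and RD genes COR15A, COR15B, KIN1, KIN2, COR47, ERD10 and RD29A. They were followed in 6 RNA-seq libraries of whole seedlings grown for 10 days on upright plates of diluted Murashige and Skoog medium and picked for like size, 3 libraries of the mutant 17ab and 3 of wild type (WT). The labels name neither a cold treatment nor a growth temperature for either genotype, so the values are those of seedlings without a named stress. All 10 genes, chosen with earlier results of these data known, were listed in at least 1 library, of 23022 genes listed in all. The labels do not spell out which genes are mutated in 17ab. In what is known of the study the name stands for mutations of bZIP17, IRE1A and IRE1B, sensors of unfolded protein in the endoplasmic reticulum. Their transcripts were lower in 17ab, at 1.90 to 2.08 FPKM (fragments scaled to gene length and library total) against 10.2 to 11.3 FPKM in WT for bZIP17, 3.73 to 4.06 against 12.1 to 12.6 for IRE1A, and 4.52 to 5.27 against 7.81 to 8.24 for IRE1B.

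In Arabidopsis, low temperature induces the CBF genes within a short time, and their proteins, which belong to the AP2/ERF family, bind the C-repeat or dehydration-responsive element (CRT/DRE) in the promoters of COR genes. The COR, KIN and dehydrin proteins are hydrophilic and known to protect membranes and enzymes during freezing and water loss. Several of these targets also answer to abscisic acid (ABA) and drought, through ABA-responsive elements (ABRE) in their promoters and without the CBF proteins.

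Library totals lay between 5968854 and 6292461 expected counts, so 3 counts, the limit that a count of 0 allows, equal 0.477 to 0.503 CPM (the count of a gene scaled to the library total). Leaf markers were all listed, with summed levels of 19247 to 20669 CPM in 17ab and 19672 to 23685 CPM in WT. Root markers were all listed too, at 158 to 176 CPM in 17ab and 139 to 145 CPM in WT, and of 5 tested 2 rose and 1 fell (14.1% of all tested genes were called). Markers of maturing seed summed to 0.954 to 1.44 CPM in 17ab and 2.28 to 5.19 CPM in WT, with CRU2, SESA1 and EM6 listed in no library. Of the senescence markers SAG12 was listed nowhere, and SAG13 had 6.84 to 8.10 CPM in 17ab and 5.20 to 10.0 CPM in WT. In RNA of whole seedlings, fewer cells of a type and less RNA per cell cannot be told apart. The root and seed sums did not overlap between the genotypes, and their part in the results on the cold genes was not tested.

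Of the 10 cold genes 4 rose in 17ab and none fell at an adjusted p under 0.05 in edgeR's quasi-likelihood test over all genes. The risen genes were KIN2, COR15A, COR15B and RD29A. COR47 and ERD10 were tested and did not pass. CBF1, CBF2, CBF3 and KIN1 had too few counts for the filter. Of 17854 genes tested, 14.1% passed, 7.57% risen and 6.51% fallen, and 1.92% rose at least 2-fold, as the 4 cold genes did. The members were chosen with earlier results of these data known, so these shares stand beside them as a description. The FPKM values of 5 of the 6 tested cold genes did not overlap between the genotypes, as was so for 31.1% of tested genes (18.2% with 17ab higher). Of the calls 53.8% were risen genes, and 43.0% once trends with base composition and gene length were taken out of each library. The 4 cold genes were risen in that fit too, by 1.01 to 2.03 on the log2 scale. Replicate libraries are not said to come from separate plates, so that the p-values measure the spread between these libraries, which may be technical.

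**Figure D1:**
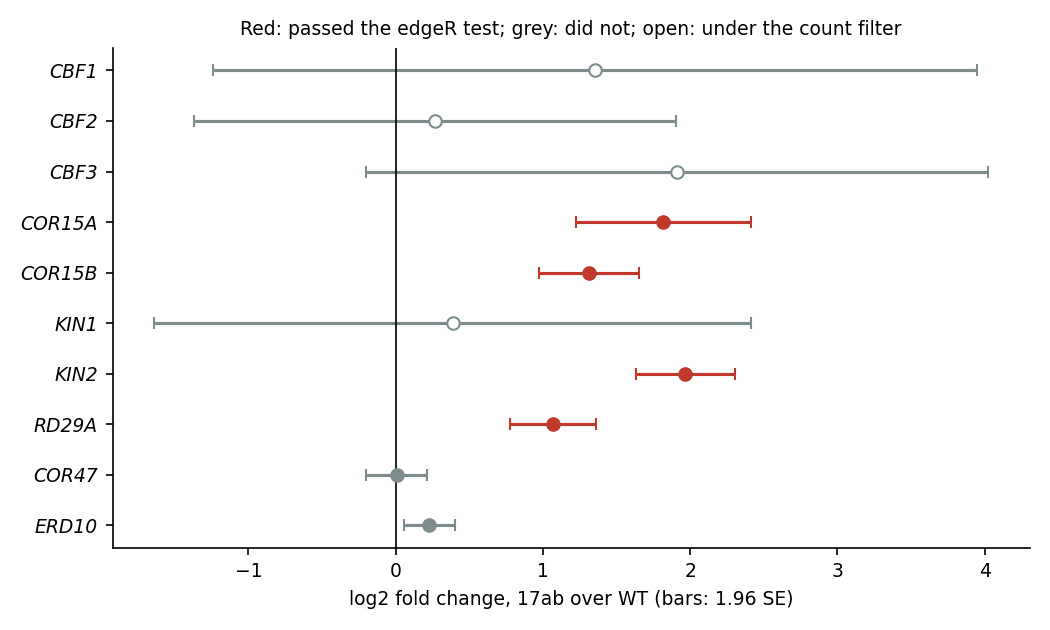
Log2 fold change of each cold gene, 17ab over WT (x axis), with bars of the 95% interval. Red points passed the edgeR test, grey ones did not, and open ones were under the count filter and come from the fit without it. KIN2, COR15A, COR15B and RD29A stand at 1.07 to 1.97, while COR47 and ERD10 are at 0.0090 and 0.23.

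The CBF regulators were close to the limit of detection in both genotypes. Gene positions here and below are those of TAIR10.1, and the CBF genes are on its minus strand. CBF1 (AT4G25490, chr4:13021780-13022996) had 5, 0 and 1 counts in 17ab replicates 1 to 3, against 0, 1 and 1 in WT replicates 1 to 3. CBF2 (AT4G25470, chr4:13015250-13016235) had 3, 4 and 2 counts in 17ab, against 3, 1 and 3 in WT. CBF3 (AT4G25480, chr4:13018010-13019400), also called DREB1A, had 3 counts in each 17ab library, against 1, 1 and 0 in WT. CBF1 and CBF2 overlapped between the genotypes. CBF3 did not overlap, on counts at or below the limit of 3.

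Summed over their libraries, the ratios of 17ab to WT per library total were 2.92 for CBF1 (exact 95% interval 0.522 to 29.6), 1.25 for CBF2 (0.414 to 3.95) and 4.38 for CBF3 (0.906 to 41.6). These intervals cover counting error only, and each includes 1. Without the count filter, edgeR put CBF3 at 1.91 ± 1.08 on the log2 scale (SE, adjusted p = 0.307), CBF1 at 1.35 ± 1.32 (adjusted p = 0.603) and CBF2 at 0.27 ± 0.84 (adjusted p = 0.887). No difference in any 1 of the CBF transcripts was detected, and ratios within the exact intervals could not be resolved at this depth. The 3 genes lie in a row on chromosome 4, with 1774 bases between CBF2 and CBF3 and 2379 bases between CBF3 and CBF1. Their coding sequences are 84.9% to 86.7% identical to each other, and their transcripts share 29 runs of 50 bases between CBF1 and CBF2 (2.48% of those in CBF1), 8 between CBF2 and CBF3 and 0 between CBF1 and CBF3. No fractional count was assigned to any of them, and the 3 genes together had 11, 7 and 6 counts in 17ab and 4, 3 and 4 counts in WT. The ratio of the summed counts was 2.12 (exact 95% interval 1.0005 to 4.80), so that this interval, unlike those of the single genes, lies just above 1. It too covers counting error only, and with the 3 genes summed to 1 feature edgeR gave a log2 fold change of 1.03 ± 0.59 (adjusted p = 0.317).

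The promoters of the targets are shown next, because the CRT/DRE and ABRE are where the regulators named above are known to act. Each sequence is the 300 bases before the annotated gene start in the RefSeq genome TAIR10.1, read 5′ to 3′ on the strand of the gene. Capitals mark the CRT/DRE core CCGAC and the ABRE core ACGTG on either strand, so that a match on the other strand reads GTCGG or CACGT. RD29A (chr5:21240417-21240716, plus strand) and COR15A (chr2:17712331-17712630, minus strand) are shown as risen genes with several CRT/DRE cores. KIN1 (chr5:5209417-5209716, plus strand) and KIN2 (chr5:5211419-5211718, plus strand) are shown because these neighbours have like promoters and unlike levels.
RD29A: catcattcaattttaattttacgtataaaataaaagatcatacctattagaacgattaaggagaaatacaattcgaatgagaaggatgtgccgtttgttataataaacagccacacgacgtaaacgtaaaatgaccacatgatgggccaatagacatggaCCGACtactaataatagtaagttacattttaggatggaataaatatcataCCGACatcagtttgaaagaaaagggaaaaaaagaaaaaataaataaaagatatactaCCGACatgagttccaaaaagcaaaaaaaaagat
COR15A: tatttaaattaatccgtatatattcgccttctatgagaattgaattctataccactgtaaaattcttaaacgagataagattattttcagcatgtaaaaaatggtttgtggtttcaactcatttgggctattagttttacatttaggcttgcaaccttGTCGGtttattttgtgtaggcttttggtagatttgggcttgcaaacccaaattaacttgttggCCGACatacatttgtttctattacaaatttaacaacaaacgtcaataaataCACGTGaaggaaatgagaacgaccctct
KIN1: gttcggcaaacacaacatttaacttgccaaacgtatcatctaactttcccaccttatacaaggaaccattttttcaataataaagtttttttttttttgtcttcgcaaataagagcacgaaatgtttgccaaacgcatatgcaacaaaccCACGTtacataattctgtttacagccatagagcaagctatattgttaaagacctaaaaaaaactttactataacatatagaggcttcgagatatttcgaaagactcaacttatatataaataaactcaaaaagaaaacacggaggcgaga
KIN2: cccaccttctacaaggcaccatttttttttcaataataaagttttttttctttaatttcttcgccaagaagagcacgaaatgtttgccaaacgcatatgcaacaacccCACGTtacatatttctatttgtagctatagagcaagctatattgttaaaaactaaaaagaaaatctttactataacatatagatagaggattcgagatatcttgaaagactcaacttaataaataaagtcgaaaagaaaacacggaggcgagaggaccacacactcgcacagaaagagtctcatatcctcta

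Positions are counted back from the annotated gene start, with -1 as the last base before it, and would shift with another annotation of the start. RD29A has 3 CRT/DRE cores, with their first bases at -140, -90 and -33, and COR15A has 2, at -142 and -79. COR15A also holds a G-box, CACGTG, at -28, which contains an ABRE core on each strand. COR15B has 1 CRT/DRE core, at -265, in a window that lies within the annotated COR15A gene but for the 7 bases that separate the pair. KIN1 and KIN2 each have 1 ABRE core and no CCGAC in this window, and COR47 and ERD10 have neither. CCGAC was present in 3 of the 10 promoters and in 13.9% of 27443 promoters of protein-coding genes. ACGTG was present in 5 of the 10, CBF2, CBF3, COR15A, KIN1 and KIN2, and in 25.6% of all. Of further motifs searched on both strands, CACGTG was present in CBF2 and COR15A (7.09% of all promoters), CGCG, the core of CAMTA sites, in CBF2 (11.8%), the E-box CANNTG, which includes the G-box, in 7 of the 10 (61.9%), and the evening element AAAATATCT in none (2.79%). A match is a run of letters and not a measured site, and a motif missing from 300 bases may lie farther away.

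**Figure D2:**
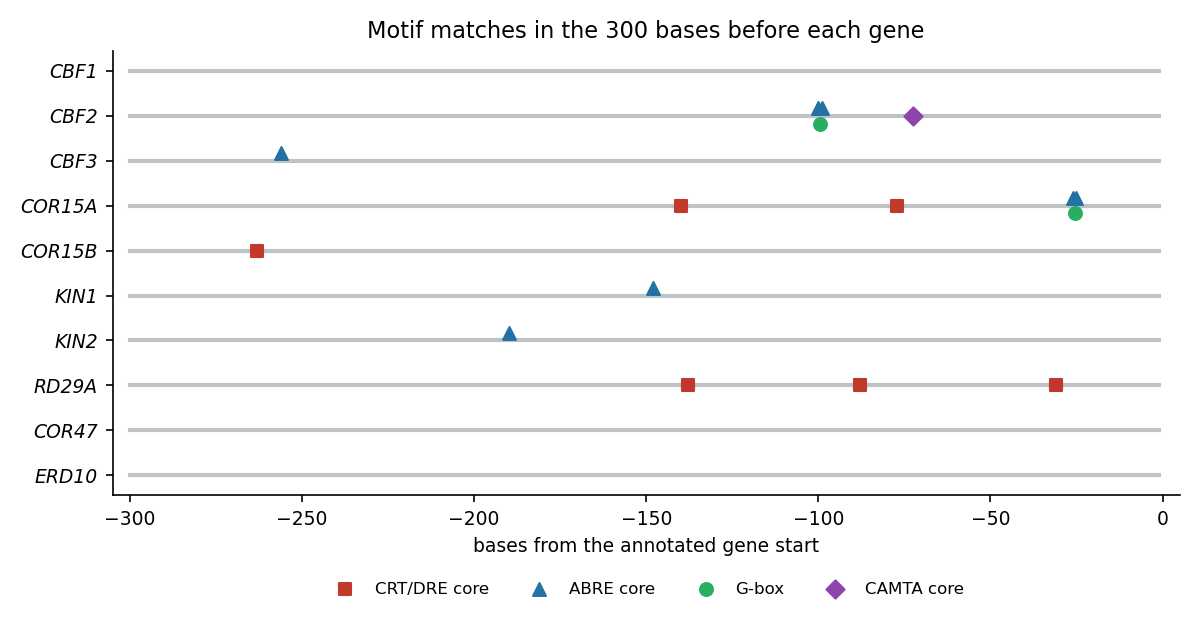
Positions of motif matches (x axis, bases from the annotated gene start) in the 300 bases before each cold gene. Squares are CRT/DRE cores, triangles ABRE cores, circles G-boxes and the diamond a CAMTA core. RD29A holds 3 CRT/DRE cores and COR15A 2, while the lines of CBF1, COR47 and ERD10 carry none of these 4 motifs.

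KIN2 (AT5G15970, chr5:5211719-5212743, plus strand), also called COR6.6, encodes a small hydrophilic protein induced by cold, drought and ABA, and showed the highest rise among the 6 cold genes tested. It had 51.7, 71.7 and 76.7 FPKM in 17ab replicates 1 to 3, against 20.4, 14.1 and 15.6 FPKM in WT. The lowest 17ab library lay above the highest WT library by more than the range within WT. The log2 fold change was 1.97 ± 0.17 (SE, edgeR adjusted p = 1.80e-05), or 3.91-fold, higher in 3 of 3 libraries. It ranked 67th of 17854 tested genes from the highest.

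KIN1 (AT5G15960, chr5:5209717-5210826, plus strand), the neighbour of KIN2 with 892 bases between them, was near the limit in every library. Its expected counts were 3.20, 1.01 and 2.85 in 17ab, against 0, 4.16 and 1.03 in WT. The genotypes overlapped, and the ratio of its rounded sums, 7 against 5, was 1.36 (exact 95% interval 0.372 to 5.44). The coding sequences of the pair are identical at 191 of 201 bases, and their promoter windows are 86.7% identical over 264 aligned positions. Fractional counts in 5 of the 6 libraries show that reads were divided between the pair, but their transcripts share 10 runs of 50 bases, 1.28% of those in KIN1. KIN2 held 98.7% to 99.7% of the counts of the pair in 17ab and 93.9% to 100.0% in WT. With KIN1 and KIN2 summed to 1 feature, the log2 fold change was 1.95 ± 0.17 (edgeR adjusted p = 1.40e-05), close to the value of KIN2 alone.

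COR15A (AT2G42540, chr2:17710441-17712330, minus strand) encodes a protein of the chloroplast stroma that stabilises membranes in freezing. It had 5.50, 6.25 and 7.53 FPKM in 17ab, against 2.30, 1.52 and 2.37 FPKM in WT. The counts behind these values were few, 30, 38 and 40 in 17ab and 12, 7 and 10 in WT, and the genotypes did not overlap on either scale. Here too the WT counts alone would not have met the count filter. The log2 fold change was 1.82 ± 0.30 (edgeR adjusted p = 0.00168), or 3.52-fold. COR15A is annotated with 4 transcripts, and the length behind its FPKM ran from 726 to 980 bases between libraries, which moves FPKM and not the tested counts.

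COR15B (AT2G42530, chr2:17708593-17710433, minus strand), its tandem neighbour and paralog, with the same known role, had 13.8, 13.1 and 19.3 FPKM in 17ab, against 6.15, 6.82 and 5.28 FPKM in WT. All 3 17ab libraries lay above all WT libraries. Its log2 fold change was 1.31 ± 0.17 (edgeR adjusted p = 0.000352), or 2.49-fold. The coding sequences of COR15A and COR15B are 82.6% identical and their transcripts share no run of 50 bases, and no fractional counts were assigned to either. COR15B overlaps the gene AT2G42520 on the opposite strand by 468 bases, and without knowledge of strand the reads there cannot be told apart. AT2G42520 had 262 to 321 counts in 17ab and 280 to 343 in WT, overlapping between the genotypes.

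RD29A (AT5G52310, chr5:21240717-21243644, plus strand), also called COR78 or LTI78, encodes a hydrophilic protein and is widely used as a reporter of cold, drought and ABA responses. It had 9.64, 14.0 and 11.6 FPKM in 17ab, against 5.55, 5.04 and 5.91 FPKM in WT, with no overlap. The log2 fold change was 1.07 ± 0.15 (edgeR adjusted p = 0.000509), or 2.09-fold, the smallest of the 4 risen genes. Its neighbour RD29B (AT5G52300), a gene known to depend on ABA, had 8, 4 and 9 counts in 17ab and 8, 12 and 6 in WT. RD29B overlapped between the genotypes and was under the count filter.

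The acidic dehydrins COR47 and ERD10, which bind water and membranes through repeated segments, were the most abundant of the 10 genes in WT and differed least between the genotypes among those tested. COR47 (AT1G20440, chr1:7084409-7086873, minus strand) had 67.2, 65.8 and 86.1 FPKM in 17ab, against 72.8, 77.2 and 63.6 FPKM in WT, and the genotypes overlapped. Its log2 fold change was 0.0090 ± 0.11 (edgeR adjusted p = 0.972), a 1.01-fold difference with a 95% interval of 0.872 to 1.16, and its sign changed with the processing. ERD10 (AT1G20450, chr1:7087903-7089606, minus strand) had 44.9, 48.7 and 46.9 FPKM in 17ab, against 37.99, 44.4 and 34.9 FPKM in WT. The ERD10 values did not overlap, by a narrow margin, but with a log2 fold change of 0.23 ± 0.09 the gene did not pass (edgeR adjusted p = 0.104). Its 95% interval, which is not adjusted for the number of genes, was 1.04 to 1.32-fold. The 2 genes are neighbours on chromosome 1, 1029 bases apart, with 73.4% identity between their coding sequences, no shared run of 50 bases and no fractional counts. ERD14, a dehydrin of the same acidic type, had 247, 235 and 272 FPKM in 17ab and 237, 259 and 212 FPKM in WT, and did not pass (log2 fold change 0.068 ± 0.08, edgeR adjusted p = 0.657).

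**Figure D3:**
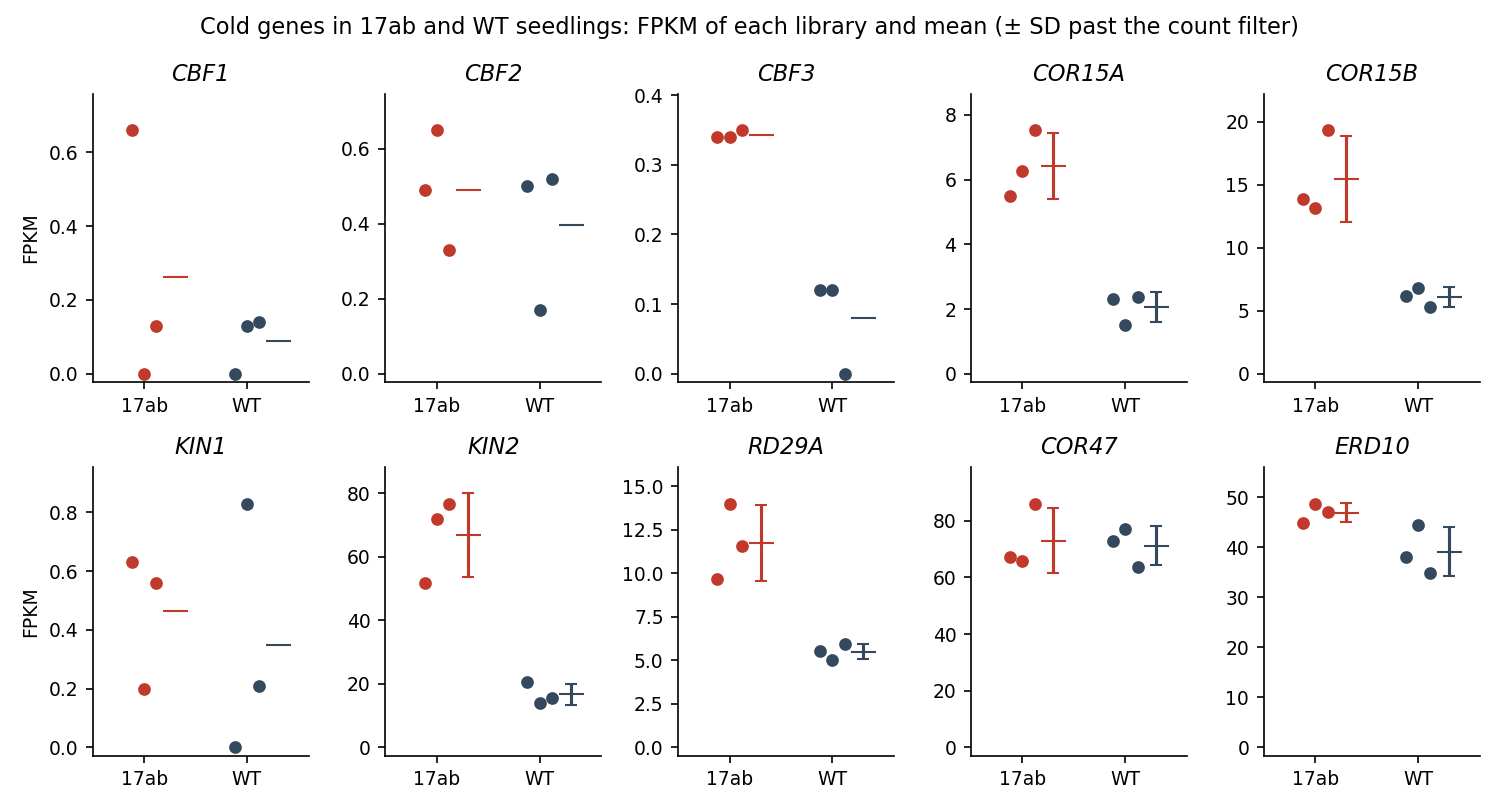
FPKM of each cold gene (y axis, own scale per gene) in the 3 libraries of 17ab and the 3 of WT, drawn as points in the order of replicates 1 to 3. Dashes are means, with SD bars for genes past the count filter (n = 3). In KIN2, COR15A, COR15B and RD29A the groups stand apart, in COR47 they overlap, and CBF1, CBF2, CBF3 and KIN1 stay under 1 FPKM.

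Per unit of length, the order of the abundant members differed between the genotypes. In 17ab the mean FPKM was 73.0 ± 11.4 for COR47, 66.7 ± 13.2 for KIN2, 46.9 ± 1.91 for ERD10, 15.4 ± 3.40 for COR15B, 11.7 ± 2.18 for RD29A and 6.43 ± 1.03 for COR15A (SD, n = 3). In WT it was 71.2 ± 6.97 for COR47, 39.1 ± 4.85 for ERD10, 16.7 ± 3.32 for KIN2, 6.08 ± 0.772 for COR15B, 5.50 ± 0.437 for RD29A and 2.06 ± 0.472 for COR15A (SD, n = 3). KIN2 thus stood above ERD10 in every 17ab library and below it in every WT library. Neighbours whose ranges overlapped were COR47 and KIN2 in 17ab, and COR15B and RD29A in both genotypes. By mean FPKM, KIN2 lay above 92.6% of genes with a value above 0 in 17ab and above 69.0% in WT, COR15A above 43.7% in 17ab and 25.7% in WT, and COR47 above 93.4% in 17ab and 93.0% in WT. CBF1, CBF2 and CBF3 lay above 9.37%, 13.1% and 10.9% of genes in 17ab and above 4.03%, 11.9% and 3.57% in WT.

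Ratios within a library do not depend on how libraries are scaled to each other. The FPKM of KIN2 was 0.770, 1.09 and 0.891 times that of COR47 in 17ab, against 0.280, 0.182 and 0.245 times in WT. The ratio differed by 1.97 on the log2 scale. Ratios to COR47 differed likewise for COR15A by 1.63, for COR15B by 1.30 and for RD29A by 1.05, each without overlap between the genotypes. The COR15A ratio also carries the length behind its FPKM, which ran from 726 to 980 bases between libraries. On counts, edgeR put COR15A at 1.82 on the log2 scale. The ratio of ERD10 to COR47 differed by 0.24 and overlapped. Among the risen genes, KIN2 stood at 5.37, 5.12 and 6.63 times the FPKM of RD29A in 17ab, against 3.68, 2.79 and 2.63 times in WT, a log2 difference of 0.92 without overlap. For COR15B over COR15A and COR15B over RD29A the values overlapped. Of 8 ratios tested, the 5 without overlap reached an exact two-sided permutation p of 0.1, the smallest that 3 against 3 libraries allow (Benjamini-Hochberg 0.16), and the other three had an exact p of 0.3 or 0.4. The ratios use the same genes and libraries as the edgeR fits, so they are not separate support.

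Set against each other, the summed regulators and the summed targets differed in abundance by orders of magnitude. The target KIN1 by itself, at a mean of 0.463 FPKM in 17ab and 0.347 FPKM in WT, was near CBF2, at 0.49 and 0.397 FPKM. The CBF genes together had 1.75, 1.11 and 0.958 CPM in 17ab, against 0.650, 0.484 and 0.670 CPM in WT. The 7 targets together had 320, 349 and 402 CPM in 17ab, against 274, 288 and 243 CPM in WT. Both sums were higher in each 17ab library than in any WT library. Taken singly, 18.2% of tested genes had FPKM higher in every 17ab library than in any WT library. Within 17ab their orders were opposite, since replicate 1 had the highest CBF sum and the lowest target sum and replicate 3 the reverse. The CBF order rests on only 11, 7 and 6 counts, and a relation between the sums was not tested. COR47 and ERD10, which did not pass, held 1442, 1459 and 1734 of the 2014, 2196 and 2515 target counts in 17ab. The median log2 fold change of the 6 tested targets was 1.19, against -0.002 over all tested genes. The members were chosen with earlier results of these data known, so this contrast is a description. Without the filter the median was 1.06 for all 7 targets. The median of the 3 CBF genes in that fit, 1.35, rests on 5 counts or fewer in each library and gene.

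Among 20 genes known to act on CBF transcription 19 were tested, of which 4 rose and 3 fell, with a median log2 fold change of 0.08. Over all tested genes 7.57% rose and 6.51% fell. MYB15, a repressor of CBF genes, had 2.79, 2.13 and 1.46 FPKM in 17ab, against 0.46, 0.45 and 0.83 FPKM in WT, a rise by 1.83 ± 0.42 in log2 (edgeR adjusted p = 0.0111). It rests on few counts, 25, 19 and 13 in 17ab and 4, 4 and 7 in WT. The WT counts alone would not have met the count filter. The kinase gene MPK3, whose product destabilises ICE1, had 55.8, 57.7 and 61.8 FPKM in 17ab, against 33.9, 34.8 and 35.5 FPKM in WT, a rise by 0.73 ± 0.07 in log2. PIF4 and PIF3, light-regulated repressors of CBF genes, rose by 0.57 ± 0.13 and 0.41 ± 0.10. ICE1, an activator of CBF3, had 32.1, 34.4 and 30.1 FPKM in 17ab, against 39.9, 38.8 and 37.2 FPKM in WT, a log2 difference of -0.30 ± 0.08 (edgeR adjusted p = 0.0167). Its paralog ICE2 fell by 0.33 ± 0.10 and the repressor SOC1 by 0.36 ± 0.10 on the log2 scale. CAMTA1, CAMTA2 and CAMTA3, calmodulin-binding activators of CBF2, did not pass, with log2 fold changes of 0.08, 0.21 and 0.30. Of these 7 calls only that of MPK3 held in all 6 fits without 1 library. MYB15 lost its call without WT replicate 1 or WT replicate 2, PIF4 without WT replicate 3, PIF3 without 17ab replicate 3 or WT replicate 3, ICE1 in 3 such fits, ICE2 in 4 and SOC1 in 5.

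The clock genes CCA1 and LHY, activators of the CBF genes with a morning peak, varied widely within each genotype. LHY had 46.8, 57.7 and 27.5 FPKM in 17ab, against 66.8, 31.8 and 49.6 FPKM in WT, a log2 difference of -0.23 ± 0.25 (edgeR adjusted p = 0.597). CCA1 differed by -0.32 ± 0.18 (edgeR adjusted p = 0.271), and neither gene passed. The 17ab library lowest in LHY, replicate 3, was the highest of its genotype in KIN2, COR15A, COR15B and COR47. The WT library lowest in LHY, replicate 2, was the lowest of its genotype in KIN2, COR15A and RD29A and the highest in COR15B, COR47 and ERD10. The part of the clock genes in the values of the cold genes was not tested.

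Among 11 other cold-induced or dehydration-induced transcription factors, DDF1 and DDF2 were listed in no library, CBF4 had 1 count in all, and 8 were tested, with 2 risen and 2 fallen. The share called over all tested genes was 14.1%. The zinc finger genes ZAT10 and CZF1 rose by 0.72 ± 0.20 and 0.39 ± 0.12, and MYB73 and RAV1 fell by 0.38 ± 0.08 and 0.29 ± 0.08 on the log2 scale. Only the call of MYB73 (edgeR adjusted p = 0.00600) held in all 6 fits without 1 library. ZAT10 and CZF1 lost theirs in 4 of these fits each and RAV1 in 5, and the list had 1 to 3 called genes in them. DREB2A, the drought and heat relative of the CBF genes, had 19, 13 and 16 counts in 17ab and 20, 29 and 14 in WT, and did not pass (edgeR adjusted p = 0.410).

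Of 22 other cold-regulated and dehydrin genes 19 were tested, and 4 rose, 1 fell and 14 did not pass, with a median log2 fold change of 0.08. For comparison, 7.57% of all tested genes rose and 6.51% fell. COR413IM1, a protein of the chloroplast inner envelope, had 31.1, 44.5 and 39.2 FPKM in 17ab, against 13.9, 15.4 and 18.2 FPKM in WT. Its log2 fold change was 1.25 ± 0.15 (edgeR adjusted p = 0.000153), a size within the range of the 4 risen cold genes. Its reads were partly shared with the neighbour COR413IM2, which differed by 0.27 ± 0.09 on the log2 scale and did not pass (edgeR adjusted p = 0.0554). ERD7 rose by 0.59 ± 0.12, SEX1, a dikinase of the starch degradation pathway, by 0.43 ± 0.12 and COR413PM1 by 0.32 ± 0.09. ELIP2, an early light-induced protein, had 2.67, 2.13 and 1.43 FPKM in 17ab, against 5.99, 3.43 and 4.68 FPKM in WT, a log2 difference of -1.20 ± 0.34 (edgeR adjusted p = 0.0319). Its counts were few, 15, 12 and 8 in 17ab and 33, 19 and 25 in WT. The 17ab counts alone would not have met the count filter. ELIP1, of the same list, differed in the other direction, by 1.02 ± 0.37 without overlap, and did not pass (edgeR adjusted p = 0.0875). The calls of COR413IM1 and ERD7 held in all 6 fits without 1 library, and those of SEX1, COR413PM1 and ELIP2 were lost in 3, 4 and 4 of them.

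Of 14 genes of ABA synthesis, ABRE-binding factors and genes that answer to ABA 13 were tested, 2 rose and none fell. That share is near the 14.1% called over all tested genes. RD22 had 156, 174 and 167 FPKM in 17ab, against 95.1, 108 and 110 FPKM in WT, a rise by 0.64 ± 0.07 in log2 (edgeR adjusted p = 0.000127). The homeobox gene HB7 had 21.6, 18.3 and 20.8 FPKM in 17ab, against 9.10, 11.7 and 14.7 FPKM in WT, a rise by 0.73 ± 0.14 in log2 (edgeR adjusted p = 0.00496). Both calls held in all 6 fits without 1 library. NCED3, the rate-limiting enzyme of ABA synthesis, had 11, 14 and 18 counts in 17ab and 13, 11 and 5 in WT and did not pass (edgeR adjusted p = 0.470). Of the ABRE-binding factors, ABF1 had 18.2, 16.6 and 19.1 FPKM in 17ab, against 13.2, 14.9 and 13.1 FPKM in WT, without overlap, and did not pass at a log2 difference of 0.31 ± 0.11 (edgeR adjusted p = 0.0829). ABF2, ABF3 and ABF4 had log2 fold changes of 0.01, 0.17 and 0.10, overlapped between the genotypes and did not pass. RAB18, an ABA-dependent dehydrin of the previous list, had 36, 48 and 49 counts in 17ab and 41, 40 and 53 in WT and did not pass (edgeR adjusted p = 0.862).

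**Figure D4:**
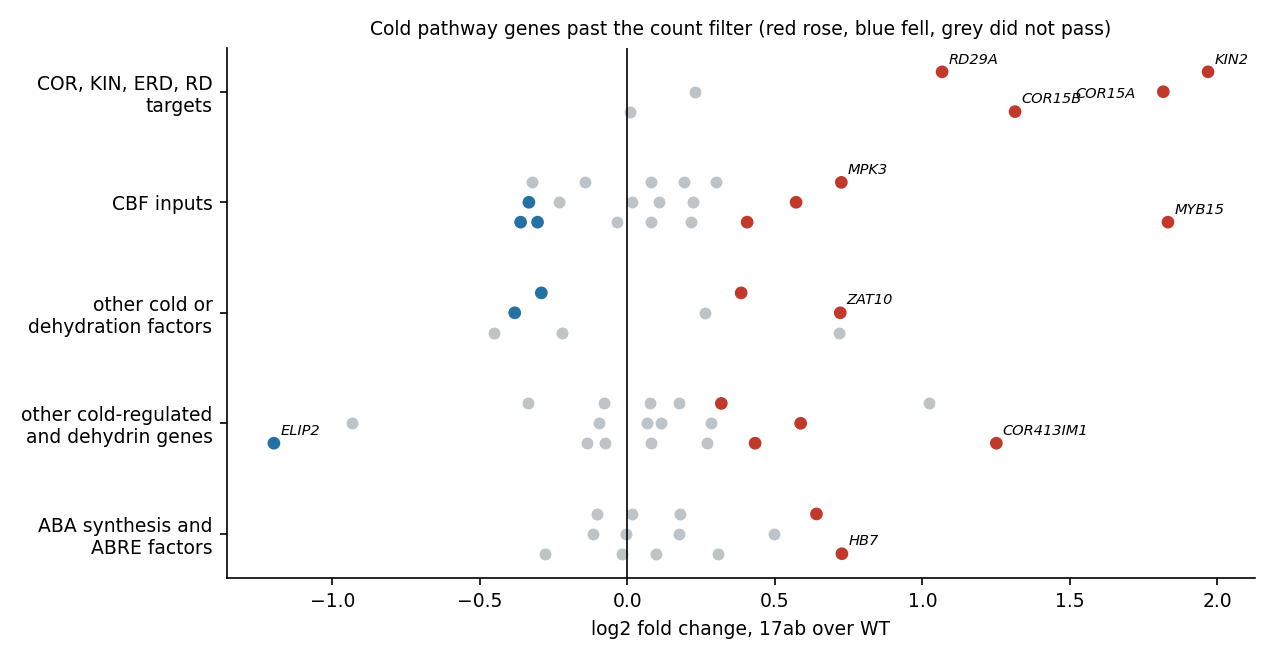
Log2 fold change, 17ab over WT (x axis), of each gene past the count filter, 1 point per gene, in the 7 cold targets and 4 other lists of the pathway (y axis). Red points rose, blue points fell and grey points did not pass the edgeR test. KIN2, COR15A, COR15B and RD29A lie to the right of every gene in the other lists but MYB15 and COR413IM1.

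The genes outside these lists with profiles nearest to the mean of the 6 tested targets over the 6 libraries were EULS3 (AT2G39050, a lectin gene), the peptide transporter gene PTR3 (AT5G46050), the heavy metal pump gene HMA2 (AT4G30110), ACA.l (AT1G13210) and AT4G12290, by the root mean square difference of centred log2 CPM, at 0.060, 0.067, 0.093, 0.107 and 0.108. Over the same 6 libraries RD29A was itself 0.149 from the mean, COR15B 0.205, COR15A 0.357, ERD10 0.419, KIN2 0.477 and COR47 0.524. EULS3 had 8.99, 10.8 and 11.5 FPKM in 17ab, against 4.83, 4.91 and 4.86 FPKM in WT. The 5 genes had log2 fold changes of 0.91 to 1.12. This is a description of likeness with no test, in which the difference between the genotypes is the main part.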

How the data were processed

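For each library the authors deposited expected counts and FPKM values of genes with their lengths, as the headers name them. STAR 2.4.0, HTSeq 0.6.0, DESeq2 and TAIR10 appear, without a role, in the submitters' processing notes, and the counting program and use of strand are not given in the sources used here. Unlisted genes were taken as 0. Expected counts were rounded and tested with edgeR 4.0.16 (R 4.3.3): quasi-likelihood test, TMM normalization, default filter (17854 genes, 99.78% of counts), genotype as the single term, Benjamini-Hochberg adjustment over all tested genes, threshold 0.05. Standard errors are the log2 fold change over the root of F. Members under the filter were read from a fit without it. The fits were tested on simulated data.

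RefSeq TAIR10.1 gave positions and promoters. It may differ from the authors' build, but lengths of all 11153 single-transcript genes compared were the same (100.0%). No promoter table was given, so windows were read from that genome by its own annotation. Members and lists were chosen with earlier results of these data known. Named genes were the 10 members, up to 4 risen and 4 fallen called genes per list, and the 5 nearest profiles. CAMTA, CCA1, LHY, ERD14, RD29B, DREB2A, NCED3, ABF and RAB18 values, those of CBF4, COR413IM2, ELIP1 and the listed markers were added after values were seen. Chi-square per degree of freedom between replicates was 2.52 to 4.35, so all 6 libraries were kept. The alternatives, among them DESeq2 1.42.0 and limma 3.58.1, are given in the closing section.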

Additional observations from a re-analysis of the deposited data

How the results depend on the processing

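The 4 risen cold genes, KIN2, COR15A, COR15B and RD29A, kept their direction and their call in all alternatives run in which they were tested, which were other size factors, no filter or a filter of 5 CPM in 3 libraries (which left COR15A out, so that 3 were called), each library left out, the replicate block, DESeq2, limma-trend on log2(FPKM + 1) or log2(FPKM + 0.1), neighbours summed, no organelle genes and an offset for GC content and length. Without 1 library their log2 fold changes ran from 1.85 to 2.15, 1.61 to 2.01, 1.11 to 1.41 and 0.92 to 1.20. COR47 turned negative without the filter (-0.00090) and with the offset (-0.067), and ran from -0.13 to 0.075 without 1 library. CBF1 ran from -0.39 (without 17ab replicate 1) to 1.91 there, CBF2 from -0.091 (without WT replicate 2) to 0.49 and KIN1 from -0.15 (without WT replicate 1) to 1.89 (without WT replicate 2). KIN1 summed with KIN2 gave 1.95.

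Genes called over the whole table numbered 1571 to 2090 without 1 library (889 to 1137 risen, 643 to 953 fallen) and 1604 with DESeq2 (876 risen, 728 fallen). Limma-trend gave 770 and 726 fallen with the larger and smaller pseudocount. The CBF inputs had 3 to 6 calls without 1 library and 4 with DESeq2 or either limma-trend. The other transcription factors had 1 to 3 without 1 library, 1 with DESeq2 and 2 with either limma-trend or the block. The other cold-regulated genes had 2 to 5 without 1 library and 3 with DESeq2 or the block. The cause of these changes was not tested, beyond the fewer libraries of the fits that leave 1 out.

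Same-numbered libraries did not deviate together (correlations of -0.003, -0.108 and -0.046). The labels do not say whether the numbers mark a shared plate or day, and these correlations cannot settle it. With the replicate block 1853 genes were called, against 2515 without it, and no call of a cold gene changed. Depth limits the CBF genes and KIN1, at 0 to 5 counts a library, where the intervals of the ratio of 17ab to WT reach up to 29.6 for CBF1, 3.95 for CBF2, 41.6 for CBF3 and 5.44 for KIN1, and down to 0.522, 0.414, 0.906 and 0.372.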
